A study of Mus musculus with 6 samples.

Results

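The collagens are the family of triple-helical proteins that form most of the scar in a fibrotic liver. The 40 collagen chains described here are every gene whose symbol is made of Col, a number, a and a number, out of 18444 genes in the expression files of 6 mouse liver libraries. That rule uses no expression value, though the set was chosen with earlier results of these data known. By class, 10 chains are fibrillar, 6 belong to the type IV collagens of basement membranes, 9 are network or beaded-filament chains, 7 are fibril-associated, and 8 are other collagens (membrane-bound, anchoring and multiplexin chains). Of these, 18 chains had at least 100 counts in 1 or more libraries and are given with their values in every library. The other 22 stayed under 100 counts throughout.

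Bulk RNA of the liver of male C57BL/6 mice (C57BL/6J in the methods, labelled as 6 to 8 weeks old) was read on the BGISEQ-500 platform, as 1 library per condition in 2 models of liver disease. That age reads as the age at the start, since the diet was given for 16 weeks and CCl4 for 6 weeks. The age at collection is not stated. In the diet model, SD is the control that the labels call a chow diet, HFD is a high fat diet given for 16 weeks, and HFD plus JT003 adds the peptide JT003, an agonist of the adiponectin receptors AdipoR1 and AdipoR2, in the last 4 weeks (500 μg/kg daily). In the second model, CCl4 is a hepatotoxin dissolved at 20% in corn oil and given at 5 ml/kg every 3 days for 6 weeks, corn oil is the vehicle control, and CCl4 plus JT003 adds 3 weeks of the peptide at the same dose. By the methods, all mice were fasted for 8 hours before they were killed. The methods give groups of 6 mice, and how many of them went into a sequenced library is stated neither there nor in the labels. The labels call the HFD liver NASH. The study names the sequenced diet groups as SD, HFD and HFD plus JT003, apart from its groups on a diet deficient in methionine and choline. With a single library per condition there was no replicate check, so that every test below compares 2 libraries and not 2 conditions.

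Each collagen is built of 3 chains that wind into a triple helix. Type I collagen joins 2 α1 chains (Col1a1) with 1 α2 chain (Col1a2), and with type III (Col3a1) and type V it makes the fibrils of scar tissue, which in injured liver come mainly from activated hepatic stellate cells and portal fibroblasts. Type IV collagen forms the sheets of basement membranes, type VI forms beaded filaments around cells, types XII and XIV coat fibrils, and types XV and XVIII are proteoglycans of basement membrane zones. Collagen XVIII, the precursor of endostatin, is made by hepatocytes.

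Col18a1 was by far the most abundant chain in every library. Its level in FPKM (fragments per kilobase of transcript, scaled to the depth of the library) was 144 in SD, 158 in HFD, 158 with JT003 added, 139 in corn oil, 185 in CCl4 and 157 with JT003 added. FPKM is a level per length and so allows chains to be compared. That was 63.3% (CCl4) to 78.1% (corn oil) of the summed FPKM of all 40 chains. The next chain differed between libraries. It was Col4a1 in SD (7.91 FPKM), Col3a1 in HFD (13.0 FPKM), Col27a1 in HFD plus JT003 (13.8 FPKM), Col5a3 in corn oil (9.18 FPKM), Col1a1 in CCl4 (20.4 FPKM) and Col5a3 again in CCl4 plus JT003 (16.5 FPKM). At the lower end, Col5a2, Col12a1 and Col4a5 stayed under 1.5 FPKM in all 6 libraries.

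**Figure D1:**
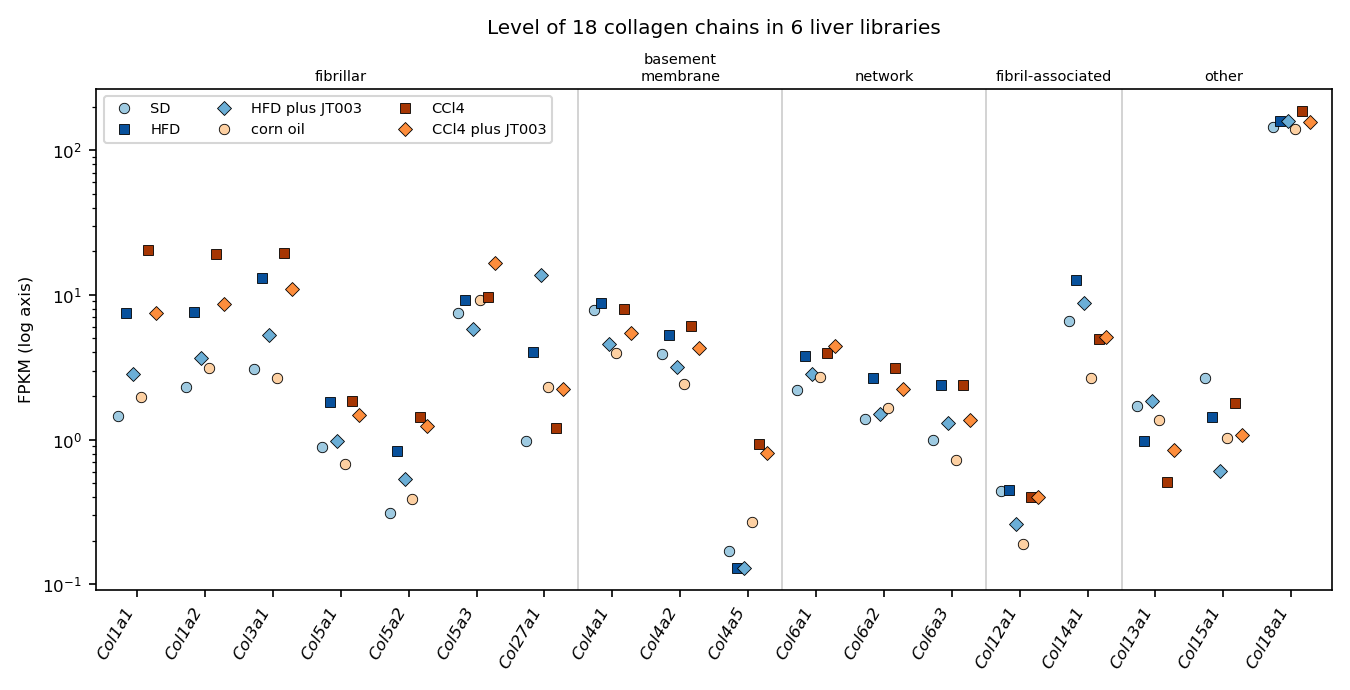
Level in FPKM (log axis) of the 18 collagen chains with at least 100 counts in some library, grouped by class, with 1 point per library and no error since there is 1 library per condition. Col18a1 lies between 139 and 185 FPKM, every other chain at or under 20.4 FPKM, and Col1a1, Col1a2 and Col3a1 are highest in CCl4.

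Summed over all chains, collagen messages took 0.0973% of all reads in corn oil, the lowest library, and 0.165% in CCl4, the highest. The summed level was 190 FPKM in SD, 243 in HFD, 218 in HFD plus JT003, 179 in corn oil, 293 in CCl4 and 234 with JT003 added to it. Without Col18a1 the same sums were 45.9, 84.3, 59.6, 39.1, 107 and 77.1 FPKM. The fibrillar chains contributed most to these differences, with 16.8 FPKM in SD, 44.2 in HFD, 33.1 in HFD plus JT003, 20.6 in corn oil, 73.5 in CCl4 and 48.9 with JT003 added to it. Their share of the summed collagen level went from 8.82% in SD to 18.2% in HFD, and from 11.5% in corn oil to 25.1% in CCl4. In HFD plus JT003, Col27a1 alone gave 13.8 of the 33.1 FPKM of the class.

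**Figure D2:**
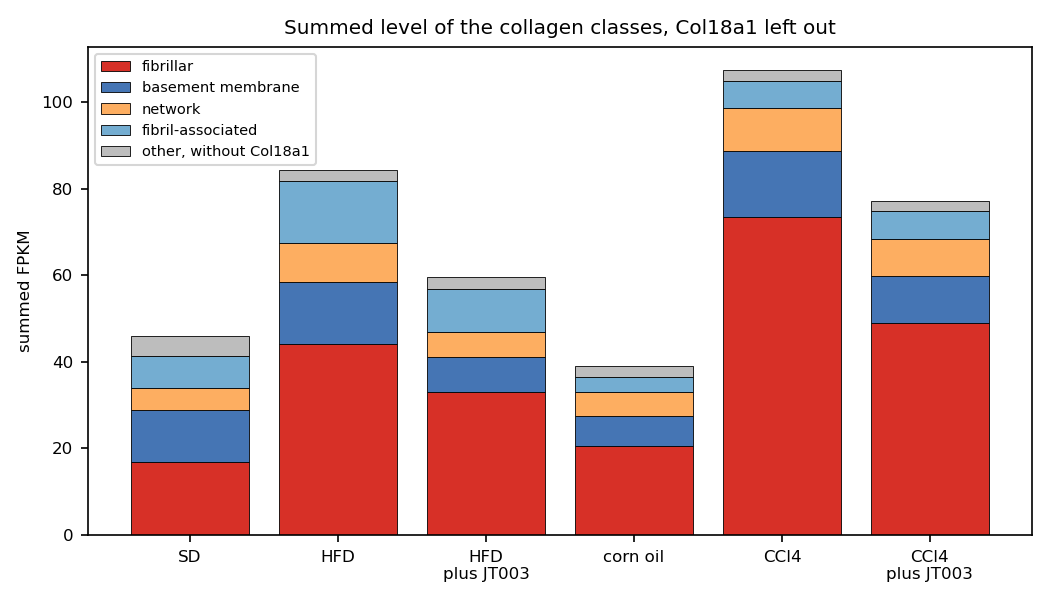
Summed FPKM of the chains of each collagen class in each library, as stacked bars from 0, with Col18a1 left out of the other class. The fibrillar part is 16.8 FPKM in SD and 73.5 FPKM in CCl4.

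The libraries held 19374236 to 20184557 reads, as the rounded sum of the authors' expected counts (estimated reads per gene, where a read shared by several genes is split). A log2 ratio below is that of TMM-scaled counts of 2 libraries, with a 95% Clopper-Pearson interval. A gene was called higher or lower at an adjusted p under 0.001 in a two-sided exact conditional binomial test with Benjamini-Hochberg adjustment, and a log2 ratio of 1 or more in either direction. Intervals cover counting error only (copies made by PCR may be among the reads) and contain no difference between mice. In bulk tissue, more or fewer cells of a type and more or less RNA per cell cannot be told apart. TMM scaling set the median gene near 0. Scaled to total reads, the median log2 ratio of all genes would be 0.12 for HFD over SD, 0.23 for CCl4 over corn oil and 0.32 for CCl4 plus JT003 over corn oil. Every collagen ratio of these comparisons would shift by about as much, though not by exactly that value. Within a model, the comparison of the disease library with its control and that of the JT003 library with the disease library share the disease library. Their values are therefore set side by side and not counted together.

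Between SD and HFD, 6 of the 37 chains tested were called higher (Col1a1, Col1a2, Col3a1, Col5a2, Col6a3, Col27a1) and 1 lower (Col15a1), where 2.96% of all 16973 genes tested were called higher and 2.49% lower. From HFD to HFD plus JT003, 1 of 37 chains was called higher (Col27a1) and 4 lower (Col1a1, Col1a2, Col3a1 and Col15a1), against 0.767% and 0.901% of 17090 genes. Between corn oil and CCl4, 8 of 38 chains were called higher (Col1a1, Col1a2, Col3a1, Col4a2, Col4a5, Col5a1, Col5a2 and Col6a3) and 2 lower (Col13a1 and Col27a1), against 4.8% and 2.46% of 17234 genes. From CCl4 to CCl4 plus JT003, no chain was called higher and 2 of 38 lower (Col1a1 and Col1a2), against 1.91% and 2.55% of 17393 genes. Among the 18 chains with at least 100 counts in any of the 6 libraries, the median log2 ratio was 0.72, -0.77, 0.76 and -0.38 in these 4 comparisons. Over all genes with 100 counts in the higher library of the pair it was -0.04, -0.00, 0.01 and -0.04. These filters differ, and Col4a5 and Col5a2 passed 100 counts in neither control, so the 2 sets of medians are not strictly comparable. Over all chains tested, without a count filter, the medians were 0.24, -0.43, 0.27 and -0.04. Over all genes tested they lay from -0.01 to 0.00. If mice of a group are assumed to vary by a coefficient of 0.4 (edgeR's exact test at that value), 0 chains were called in any of the 4 comparisons. The share of all genes called at that value is not given, so the 0 is not read as a trait of collagen chains.

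**Figure D3:**
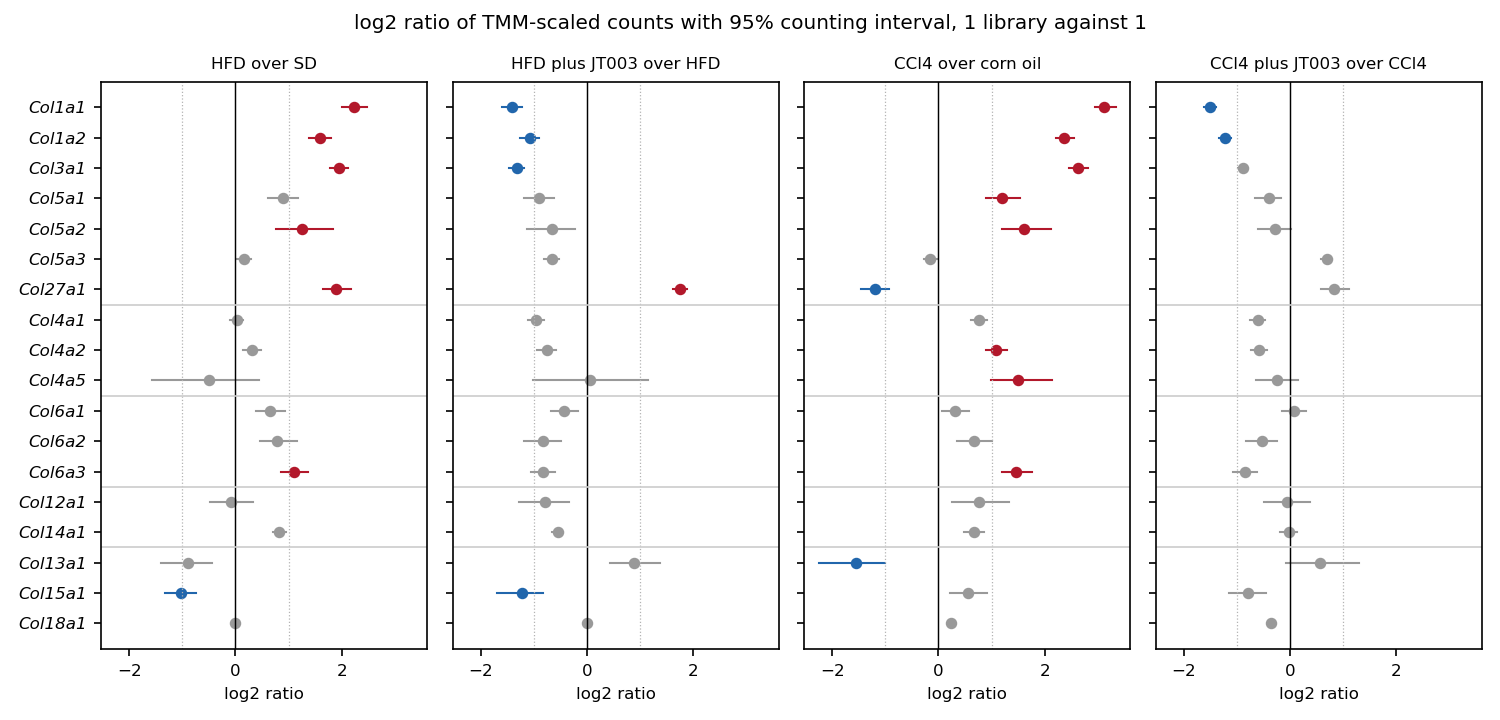
log2 ratio of TMM-scaled counts (points) with the 95% counting interval (lines) for 18 chains in 4 comparisons of 1 library with 1 library; red chains were called higher, blue ones lower, grey ones not called, and dotted lines mark a log2 ratio of 1 in either direction. Col1a1 is at 2.23 and 3.13 with HFD and CCl4 and at -1.41 and -1.51 with JT003, whereas Col27a1 is at 1.90 and -1.19 with the 2 models.

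Type I and type III collagen are the main proteins of scar fibrils, and of the 18 chains Col1a1 had the largest log2 ratio with HFD and with CCl4. Col1a1 (gene ID 12842) had counts of 178 in SD, 899 in HFD and 343 with JT003 added, and of 231 in corn oil, 2483 in CCl4 and 876 with JT003 added. The HFD library was thus above both others of its model, and CCl4 was above every other library. Between SD and HFD the log2 ratio was 2.23 (95% interval 2.01 to 2.49), and it was -1.41 (95% interval -1.60 to -1.23) for HFD plus JT003 over HFD. For CCl4 over corn oil it was 3.13 (95% interval 2.94 to 3.34), and for CCl4 plus JT003 over CCl4 -1.51 (95% interval -1.63 to -1.40). All 4 were called.

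Col1a2 (gene ID 12843), the α2 chain of the same protein, had counts of 247 in SD, 794 in HFD and 383 with JT003 added, and of 323 in corn oil, 2051 in CCl4 and 882 with JT003 added. Its order over the libraries of each model was that of Col1a1, with smaller ratios. These were 1.59 with HFD, -1.07 with JT003 in the diet model, 2.37 with CCl4 and -1.23 with JT003 in the CCl4 model, all called. Col3a1 (gene ID 12825), the only chain of type III collagen, had counts of 352 in SD, 1449 in HFD and 588 with JT003 added, and of 291 in corn oil, 2214 in CCl4 and 1208 with JT003 added. It was called higher with HFD at 1.94 (95% interval 1.78 to 2.12), lower with JT003 in the diet model at -1.32 (95% interval -1.46 to -1.18) and higher with CCl4 at 2.63 (95% interval 2.46 to 2.82). With JT003 in the CCl4 model its ratio was -0.88 (95% interval -0.99 to -0.78), short of the fold threshold.

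The RefSeq promoter table (GRCm38.p6, a later build than the mm9 named in the submitters' processing notes, so that its coordinates belong to the table and not to the files) held a window for 33 of the 40 chains, 35 windows in all, and for 14 of the 18 chains above 100 counts. Col1a1 had no entry in it. The 250 bases before the start site are shown for Col1a2 and Col3a1, 2 chains with like order over the libraries, and for Col27a1, a fibrillar chain with another order. Capitals mark the TATA box letters TATAAA, the CCAAT box and the GC box letters GGGCGG on either strand, and all 3 genes lie on the plus strand.
Col1a2 (chr6:4505368-4505617): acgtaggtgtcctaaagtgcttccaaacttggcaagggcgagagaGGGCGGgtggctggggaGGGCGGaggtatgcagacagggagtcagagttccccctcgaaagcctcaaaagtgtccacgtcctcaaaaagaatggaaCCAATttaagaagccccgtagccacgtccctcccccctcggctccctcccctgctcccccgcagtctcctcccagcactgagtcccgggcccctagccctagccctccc
Col3a1 (chr1:45311288-45311537): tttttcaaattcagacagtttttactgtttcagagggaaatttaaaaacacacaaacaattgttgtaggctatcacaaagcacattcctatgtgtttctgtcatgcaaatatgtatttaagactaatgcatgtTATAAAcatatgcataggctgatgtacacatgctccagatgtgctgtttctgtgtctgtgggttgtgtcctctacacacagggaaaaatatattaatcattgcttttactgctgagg
Col27a1 (chr4:63215162-63215411): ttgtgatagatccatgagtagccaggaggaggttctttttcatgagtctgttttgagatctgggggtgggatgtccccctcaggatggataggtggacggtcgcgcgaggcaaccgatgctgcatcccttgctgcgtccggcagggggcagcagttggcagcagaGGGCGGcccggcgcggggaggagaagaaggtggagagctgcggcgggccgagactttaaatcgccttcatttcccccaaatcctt
In the Col1a2 window the letters CCAAT began at -109 and GGGCGG at -205 and -188, counted from the start site. Of the marked motifs, the Col3a1 window held TATAAA at -117 alone, and the Col27a1 window held GGGCGG at -85 alone. No marked motif was in all 3 windows, and GGGCGG was in both Col1a2 and Col27a1. The letters CAGAC, searched but not marked, were in all 3, at -175 in Col1a2, -239 and -64 in Col3a1 and -205 in Col27a1.

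Over all 35 collagen windows, GGGCGG was present in 62.9%, beside 32.7% of the 32851 windows of all genes. The other motifs were searched on both strands too, and none contains another. TATAAA was in 14.3% of collagen windows and 12.4% of all windows, CCAAT in 34.3% and 33.8%, and CAGAC (letters bound by SMAD proteins) in 42.9% and 42.2%. The AP-1 letters TGANTCA were in 2.86% and 6.75%. These are matches of letters in a window and no measure of binding. Several chains are neighbours on a chromosome in the RefSeq gene table, among them Col3a1 and Col5a2 on chromosome 1, Col6a1 and Col6a2 on chromosome 10, and Col4a1 and Col4a2 on chromosome 8, which start head to head.

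Type V collagen sits inside type I fibrils and limits their diameter. Col5a1 had FPKM values of 0.89 in SD, 1.81 in HFD, 0.98 with JT003 added, 0.68 in corn oil, 1.86 in CCl4 and 1.47 with JT003 added. It was highest in HFD and CCl4 within their models, at log2 ratios of 0.89 (95% interval 0.62 to 1.19) with HFD, not called, and 1.20 (95% interval 0.90 to 1.54) with CCl4, called higher. Col5a2 had counts of 42 in SD, 110 in HFD, 70 with JT003 added, 51 in corn oil, 195 in CCl4 and 161 with JT003 added, and it was called higher with both, at 1.26 (95% interval 0.77 to 1.85) and 1.61 (95% interval 1.20 to 2.12). With JT003 neither chain was called, and their ratios were -0.90 and -0.66 in the diet model and -0.40 and -0.28 in the CCl4 model.

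The third chain of type V, Col5a3, was the more abundant one by level and had another order. Its level in FPKM was 7.54 in SD, 9.19 in HFD, 5.85 with JT003 added, 9.18 in corn oil, 9.73 in CCl4 and 16.5 with JT003 added. The highest library was CCl4 plus JT003, and SD, HFD, corn oil and CCl4 lay between 7.54 and 9.73 FPKM. The log2 ratios of this chain were 0.16 (95% interval 0.04 to 0.29) with HFD, -0.66 (95% interval -0.80 to -0.53) with JT003 in the diet model, -0.15 (95% interval -0.27 to -0.04) with CCl4 and 0.69 (95% interval 0.59 to 0.80) with JT003 in the CCl4 model. None was called, and scaled to total reads the ratio with CCl4 had the other sign (0.08).

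Col27a1 (gene ID 373864), a fibrillar chain known from cartilage, had the widest range of level among the 18 chains, 14.1 times from the lowest to the highest library, followed by Col1a1 at 14.0 times. It had counts of 154 in SD, 617 in HFD, 2123 with JT003 added, 351 in corn oil, 187 in CCl4 and 338 with JT003 added. The 6 libraries did not follow the order of type I collagen, since HFD plus JT003 was the highest and CCl4 lay below corn oil. Its log2 ratio was 1.90 (95% interval 1.65 to 2.18) with HFD and 1.76 (95% interval 1.63 to 1.89) with JT003 in the diet model, both called higher. With CCl4 it was called lower at -1.19 (95% interval -1.46 to -0.94), and with JT003 in the CCl4 model it was 0.84 (95% interval 0.58 to 1.11), not called. HFD plus JT003 over SD gave 3.65 (95% interval 3.43 to 3.92), rank 18 from the top among 9640 genes with 100 counts in the higher library. Of the cartilage markers looked for, Acan was not found in any library, and Comp was at 0 FPKM in 5 libraries and 0.04 in corn oil. Sox9, which bile duct cells also express, had FPKM values of 1.31 in SD, 1.32 in HFD, 1.22 with JT003 added, 1.98 in corn oil, 5.21 in CCl4 and 2.55 with JT003 added.

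In the basement membrane class, Col4a1 and Col4a2, which form the common type IV heterotrimer, were not called in the diet model. Col4a1 had counts of 1075 in SD, 1163 in HFD, 607 with JT003 added, 522 in corn oil, 1078 in CCl4 and 710 with JT003 added. SD and HFD were close to each other after scaling, and the lowest libraries were corn oil, HFD plus JT003 and CCl4 plus JT003. The log2 ratios were 0.02 (95% interval -0.10 to 0.14) with HFD, -0.96 (95% interval -1.10 to -0.82) with JT003 in the diet model, 0.76 (95% interval 0.61 to 0.91) with CCl4 and -0.61 (95% interval -0.75 to -0.48) with JT003 in the CCl4 model, and none passed both thresholds. The ratio with CCl4 exceeded that with HFD by 0.73 (95% interval 0.54 to 0.93). Col4a2 had counts of 516 in SD, 683 in HFD, 411 with JT003 added, 311 in corn oil, 810 in CCl4 and 545 with JT003 added, with HFD and CCl4 highest in their models. It was called only with CCl4, at 1.09 (95% interval 0.90 to 1.29), and its other ratios were 0.31, -0.75 and -0.58.

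Col4a5, a chain of the type IV networks best known from the kidney, had counts of 22 in SD, 16 in HFD, 17 with JT003 added, 34 in corn oil, 121 in CCl4 and 103 with JT003 added. The CCl4 and CCl4 plus JT003 libraries were above the other 4. It was called higher with CCl4 at 1.49 (95% interval 0.98 to 2.14), and its ratio with JT003 in that model was -0.24 (95% interval -0.64 to 0.15). The remaining chains Col4a3, Col4a4 and Col4a6 had at most 19 counts in any library.

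Of the network chains, the 3 chains of the common type VI heterotrimer passed 100 counts. Col6a3, which has the longest protein of them, had counts of 192 in SD, 442 in HFD, 253 with JT003 added, 130 in corn oil, 442 in CCl4 and 248 with JT003 added, equal in HFD and CCl4 and lower in every other library. It was called higher with HFD at 1.10 (95% interval 0.86 to 1.36) and with CCl4 at 1.46 (95% interval 1.19 to 1.77). With JT003 it was not called, at -0.82 (95% interval -1.06 to -0.60) and -0.84 (95% interval -1.07 to -0.62). Col6a1 had FPKM values of 2.21 in SD, 3.78 in HFD, 2.83 with JT003 added, 2.72 in corn oil, 3.99 in CCl4 and 4.41 with JT003 added, whereas Col6a2 had values of 1.39 in SD, 2.65 in HFD, 1.5 with JT003 added, 1.65 in corn oil, 3.11 in CCl4 and 2.24 with JT003 added. Neither was called in the 4 comparisons. Their ratios with HFD were 0.64 and 0.79, with JT003 in the diet model -0.43 and -0.83, with CCl4 0.31 and 0.67, and with JT003 in that model 0.07 and -0.53.

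Among the fibril-associated chains, Col14a1, which binds the surface of type I fibrils, had counts of 873 in SD, 1652 in HFD, 1143 with JT003 added, 339 in corn oil, 657 in CCl4 and 651 with JT003 added. All 3 libraries of the diet model were above the 3 of the CCl4 model. Its ratios were 0.83 (95% interval 0.71 to 0.95) with HFD, -0.55 (95% interval -0.66 to -0.44) with JT003 in the diet model, 0.66 (95% interval 0.47 to 0.86) with CCl4 and -0.02 (95% interval -0.18 to 0.13) with JT003 in the CCl4 model, and none was called. Col12a1, a related chain, had counts of 106 in SD, 107 in HFD, 62 with JT003 added, 45 in corn oil, 95 in CCl4 and 92 with JT003 added, and it was not called either, at -0.08, -0.79, 0.77 and -0.06.

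Among the other collagens, Col15a1, a proteoglycan of vessel basement membranes, had counts of 291 in SD, 152 in HFD, 65 with JT003 added, 108 in corn oil, 194 in CCl4 and 112 with JT003 added. SD was the highest library and HFD plus JT003 the lowest. It was called lower with HFD at -1.02 (95% interval -1.32 to -0.74) and lower again with JT003 at -1.22 (95% interval -1.69 to -0.82). With CCl4 the ratio was 0.55 (95% interval 0.21 to 0.91) and with JT003 in that model -0.79 (95% interval -1.15 to -0.46), neither called. Scaled to total reads, the ratio with HFD was -0.89 and was no longer called.

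Col13a1, a membrane-spanning chain, had counts of 104 in SD, 59 in HFD, 112 with JT003 added, 80 in corn oil, 32 in CCl4 and 49 with JT003 added. HFD and CCl4 were each the lowest library of their model. It was called lower with CCl4 at -1.55, and its other ratios were -0.89 (95% interval -1.40 to -0.43) with HFD, 0.88 (95% interval 0.43 to 1.38) with JT003 in the diet model and 0.57 (95% interval -0.07 to 1.29) with JT003 in the CCl4 model. Col18a1, with 14307 to 20460 counts, had the narrowest intervals and, in the diet model, the ratios nearest to 0. They were -0.00 (95% interval -0.03 to 0.03), -0.00 (95% interval -0.03 to 0.03), 0.23 (95% interval 0.20 to 0.26) and -0.36 (95% interval -0.39 to -0.33) in the same 4 comparisons.

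The 22 chains under 100 counts added 153 to 293 counts per library in sum. The most abundant was Col16a1, a fibril-associated chain, with 45 counts in the SD and corn oil libraries and 65 to 81 in the others. Of the 22, 16 reached 4 to 99 counts in some library and 6 never passed 3 counts (Col6a4, Col9a2, Col10a1, Col11a1, Col22a1 and Col28a1). A count of 0 allows up to 3 counts, which is 0.149 to 0.155 counts scaled to library depth (CPM), for counting error only. None was called in the 4 comparisons above, where 19 or 20 of them had a read to be tested. The chains under 100 counts that are named in the text were chosen after their values were seen.

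Ratios between chains within a library do not depend on how libraries are scaled. Col1a1 to Col1a2, whose protein holds them at 2 to 1, had a ratio of FPKM values of 0.632 in SD, 0.995 in HFD, 0.786 with JT003 added, 0.629 in corn oil, 1.06 in CCl4 and 0.872 with JT003 added. The controls were alike and the disease libraries stood highest. From SD to HFD the ratio changed by a factor of 1.57 (95% interval 1.26 to 1.96), and from corn oil to CCl4 by 1.69 (95% interval 1.41 to 2.03). The factors with JT003 were 0.791 (95% interval 0.662 to 0.945) and 0.82 (95% interval 0.734 to 0.917), and between the SD and corn oil controls the factor was 0.992 (95% interval 0.762 to 1.29).

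Col3a1 to Col1a1 was 2.12 in SD, 1.72 in HFD, 1.84 with JT003 added, 1.35 in corn oil, 0.953 in CCl4 and 1.47 with JT003 added. It was above 1 in every library but CCl4. Its factor was 0.708 (95% interval 0.587 to 0.852) with CCl4 and 1.55 (95% interval 1.39 to 1.72) with JT003 in that model, beside 0.815 (95% interval 0.664 to 0.998) and 1.06 (95% interval 0.906 to 1.25) in the diet model. Col4a1 to Col4a2 was 2.03 in SD, 1.66 in HFD, 1.44 with JT003 added, 1.64 in corn oil, 1.3 in CCl4 and 1.27 with JT003 added, with SD the highest. Col5a3 to Col5a1 was 8.47 in SD, 5.08 in HFD, 5.97 with JT003 added, 13.5 in corn oil, 5.23 in CCl4 and 11.2 with JT003 added, and was lowest in HFD and CCl4 within their models. That last ratio changed by a factor of 0.387 (95% interval 0.305 to 0.488) with CCl4 and 2.15 (95% interval 1.78 to 2.58) with JT003 after CCl4.

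**Figure D4:**
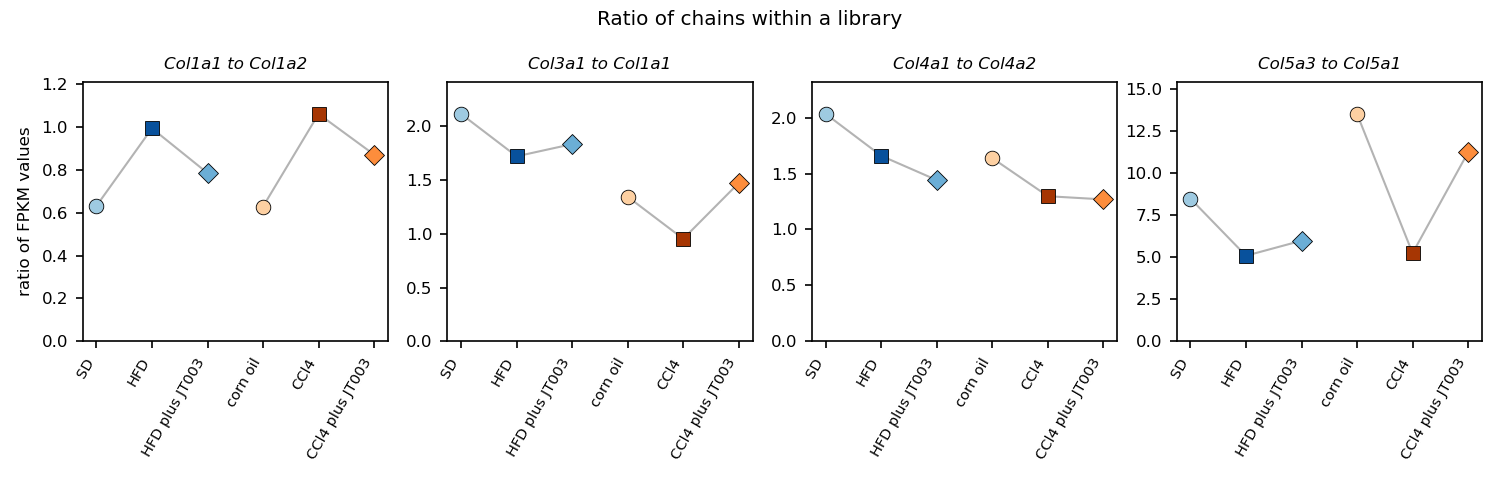
Ratio of the FPKM values of 2 chains in each library, with 1 panel per pair and grey lines joining the libraries of a model. Col1a1 to Col1a2 is 0.632 in SD, 0.629 in corn oil, 0.995 in HFD and 1.06 in CCl4.

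How far the JT003 libraries lay from the controls was read from 2 further comparisons. Between SD and HFD plus JT003, 1 of 37 chains was called higher (Col27a1) and 1 lower (Col15a1), where 3.2% and 2.78% of 17012 genes were. Col1a1 had a ratio of 0.83 (95% interval 0.57 to 1.10), Col1a2 of 0.52 (95% interval 0.28 to 0.76) and Col3a1 of 0.62 (95% interval 0.43 to 0.82), all with intervals above 0 and under the fold threshold. Col4a1 was at -0.94 (95% interval -1.08 to -0.79), below the control. Between corn oil and CCl4 plus JT003, 6 of 39 chains were called higher and none lower, where 3.29% and 1.77% of 17338 genes were. Those chains were Col1a1 at 1.62 (95% interval 1.41 to 1.84), Col1a2 at 1.15, Col3a1 at 1.75, Col4a5 at 1.26, Col5a2 at 1.33 and Col6a6 at 2.36 (95% interval 1.23 to 5.28). Col6a6, a further type VI chain under 100 counts, had 3 counts in corn oil and 28 in CCl4 plus JT003, and is named for its call.

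The controls of the models differed from each other. Between SD and corn oil, 1 of 37 chains was called higher in corn oil (Col27a1 at 1.33) and 3 lower (Col12a1 at -1.06, Col14a1 at -1.21 and Col15a1 at -1.27), where 2.24% and 3.27% of 17018 genes were called. Col1a1 was at 0.52 (95% interval 0.24 to 0.82) and Col3a1 at -0.12 (95% interval -0.35 to 0.10). These mice belong to separate experiments, whose vehicle, length and other differences cannot be told apart. Mesothelial markers (genes of the liver's outer cell layer) were higher in corn oil, 5 of 6 called, with a summed level of 0.85 FPKM in SD and 7.95 in corn oil. Of 7 macrophage markers, 5 were called lower, with 95.2 and 21.2 FPKM. Of 11 stellate cell and myofibroblast markers, 2 were called higher and 2 lower. Among them, Acta2 had 31 counts in SD and 165 in corn oil. Portal fibroblast markers had 2 of 7 called higher, and endothelial markers 2 of 7 called lower. In the cholangiocyte and fat cell lists, 1 gene each was called higher. The part of these markers in the collagen differences was not tested.

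The change with disease was compared between the models as the difference of log2 ratios, CCl4 over corn oil less HFD over SD. Its 95% interval lay above 0 for 9 of 18 chains and below 0 for 2, where it did so for 35.4% and 26.6% of 10274 genes with 100 counts in some library, so that in all such intervals were about as common among collagen chains as among other genes. The difference was 0.89 (95% interval 0.59 to 1.20) for Col1a1, 0.79 (95% interval 0.52 to 1.05) for Col1a2, 0.69 (95% interval 0.44 to 0.93) for Col3a1 and 1.99 (95% interval 0.96 to 3.02) for Col4a5. Col15a1, lower with HFD and not with CCl4, differed by 1.57 (95% interval 1.13 to 2.01), and Col27a1 by -3.09 (95% interval -3.44 to -2.73). For JT003, the interval lay above 0 for 7 of 18 chains and below 0 for 2, where it did so for 23% and 29.7% of 10270 genes. Col5a3 had the largest difference, 1.36 (95% interval 1.19 to 1.53), and Col1a1 one of -0.10 (95% interval -0.31 to 0.11), an interval that holds 0. These intervals contain no difference between mice.

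A second set of CCl4 counts was used after the data had been seen. It came from a table deposited to compare the 2 CCl4 groups, whose CCl4 column summed to 2.97 times the CCl4 library and appears to pool that library with others, which is inferred from the values. Less the counts of the CCl4 library, it left 1.97 times that library's reads. Between this remainder and the CCl4 library, 0 of 39 chains were called in either direction, where 1.45% of 17471 genes were called higher in the remainder and 0.24% lower. The log2 ratios of the 18 chains lay from -0.20 (Col18a1) to 0.86 (Col6a1), with a median of 0.34 beside -0.02 over genes with 100 counts. Over all 39 chains tested the median was 0.37, beside 0.03 over all genes tested. Col1a1 was at 0.15 (95% interval 0.09 to 0.22), Col3a1 at 0.43 (95% interval 0.36 to 0.50), Col4a1 at 0.55 (95% interval 0.46 to 0.66) and Col27a1 at -0.03 (95% interval -0.29 to 0.23).

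Set against this remainder, CCl4 plus JT003 had 6 of 40 chains called lower (Col1a1, Col1a2, Col3a1, Col4a1, Col6a2 and Col6a3) and 0 higher, where 3.38% and 1.29% of 17554 genes were. Col1a1 was at -1.67 (95% interval -1.77 to -1.57), Col3a1 at -1.31 (95% interval -1.40 to -1.22) and Col6a3 at -1.42 (95% interval -1.63 to -1.23), while Col5a3 was at 0.67 (95% interval 0.58 to 0.75) and Col27a1 at 0.87 (95% interval 0.66 to 1.09). Col6a1 had a ratio of -0.79 here and 0.07 against the CCl4 library, so that its direction depended on the set of CCl4 counts. Over corn oil, the remainder had 12 of 39 chains called higher and 1 lower (Col27a1 at -1.22), where 7.36% and 2.56% of 17465 genes were. The 12 were the 8 chains called with the CCl4 library plus Col4a1, Col6a1, Col6a2 and Col6a6; Col13a1 was at -0.95 (95% interval -1.41 to -0.53), and it was not called lower there.

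**Figure D5:**
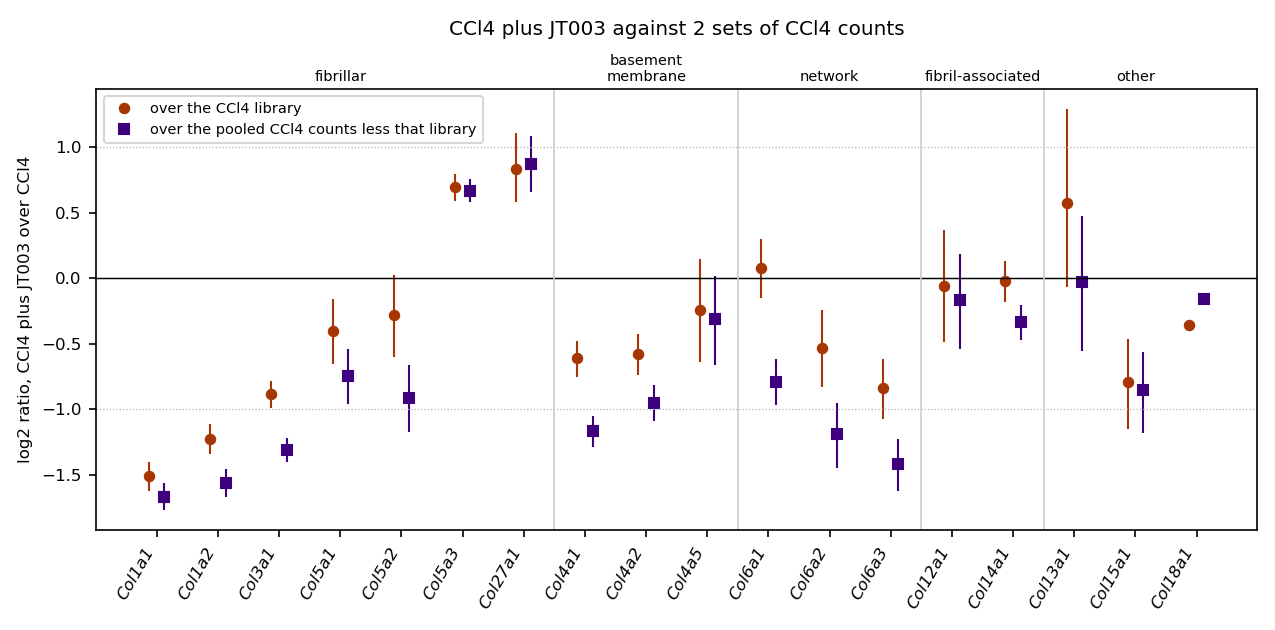
log2 ratio of CCl4 plus JT003 over the CCl4 library (circles) and over the pooled CCl4 counts less that library (squares) for 18 chains, with 95% counting intervals; both sets are compared with the same CCl4 plus JT003 library. Col1a1 is at -1.51 and -1.67, Col5a3 at 0.69 and 0.67, and Col6a1 at 0.07 and -0.79.

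Collagen chains are modified and folded in the endoplasmic reticulum by prolyl and lysyl hydroxylases and by the chaperone Serpinh1 (HSP47). Of 21 genes of this list, 2 were called higher and 2 lower with HFD, 0 and 2 with JT003 in the diet model, 3 and 0 with CCl4, and 0 and 1 with JT003 in the CCl4 model. For this list and those that follow, 2.96% of all genes were called higher and 2.49% lower with HFD. With JT003 in the diet model these shares were 0.767% and 0.901%, and with CCl4 4.8% and 2.46%. With JT003 in the CCl4 model they were 1.91% and 2.55%. With HFD and in the CCl4 model, 1 call in lists of this size is close to that background. With JT003 in the diet model the shares were lower, and 1 call there still rests on a single gene. Serpinh1 had counts of 135 in SD, 468 in HFD, 213 with JT003 added, 177 in corn oil, 470 in CCl4 and 303 with JT003 added, and it was called higher with HFD at 1.69 (95% interval 1.42 to 1.99) and with CCl4 at 1.11 (95% interval 0.87 to 1.38), and lower with JT003 in the diet model at -1.15 (95% interval -1.40 to -0.92). P4ha1, the catalytic subunit of prolyl 4-hydroxylase, had counts of 251 in SD, 608 in HFD and 237 with JT003 added, called higher at 1.18 and lower at -1.37. Crtap, a partner of prolyl 3-hydroxylase, was called higher with CCl4 at 1.01, and Tram2, linked to collagen synthesis at the translocon, was called lower with HFD at -1.18. The remaining calls, under 100 counts, were P3h4 with HFD (-1.67), Fkbp10 with CCl4 (1.63) and Tram2 with JT003 after CCl4 (-1.45), named after their values were seen.

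After secretion, propeptides are cut off by Bmp1 and ADAMTS proteases and the fibrils are crosslinked by lysyl oxidases. Among 17 genes of that list, 1 was called higher with HFD and 1 lower with JT003, both times Lox, which had counts of 2 in SD, 29 in HFD and 3 with JT003 added and so lies under the count set for named genes. With CCl4, 2 were called higher and 1 lower, and with JT003 after CCl4 1 lower. Loxl4, a lysyl oxidase, had counts of 69 in SD, 38 in HFD, 44 with JT003 added, 20 in corn oil, 206 in CCl4 and 20 with JT003 added, called higher with CCl4 at 2.97 (95% interval 2.41 to 3.82) and lower with JT003 at -3.25 (95% interval -4.12 to -2.71). Sparc, a matrix protein that binds collagen, was called higher with CCl4 at 1.58 (95% interval 1.47 to 1.69), and it was at -0.65 (95% interval -0.73 to -0.57) with JT003. Fmod, a proteoglycan of fibrils with 66 counts in corn oil and 36 in CCl4, was called lower.

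Of 10 receptor genes (9 with reads in the diet libraries), 1 was called higher with HFD and 2 with CCl4, and none with JT003, where 2.96% and 4.8% of all genes were called higher with HFD and CCl4. Ddr1, a collagen-binding tyrosine kinase, was at 1.58 (95% interval 1.20 to 2.04) with CCl4, and Mrc2, which takes up collagen fragments, at 1.04 (95% interval 0.58 to 1.57). With HFD it was Mrc2 again, at 1.02 and with 41 and 91 counts. Of 12 collagenases, gelatinases and their inhibitors, 2 were called higher with HFD and 2 with CCl4, and none with JT003. Those with CCl4 were the membrane-bound proteases Mmp14, at 1.08 (95% interval 0.96 to 1.20), and Mmp15, at 1.06 (95% interval 0.92 to 1.20). Those with HFD were Mmp13, with counts of 1 in SD and 23 in HFD, and the inhibitor Timp1, with 2 in SD and 20 in HFD.

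Markers of the cells that make or border collagen were read beside these results, and their part in them was not tested. The 11 stellate cell and myofibroblast markers had 1 gene called higher with HFD (Lrat), none with JT003 in the diet model, none with CCl4 and 2 lower with JT003 after CCl4 (Acta2 and Tagln). Their summed level in FPKM was 99.2 in SD, 142 in HFD, 141 with JT003 added, 96.9 in corn oil, 91.3 in CCl4 and 116 with JT003 added, of which Dcn took most, and Gfap stayed at or under 0.13 FPKM. Acta2, the defining actin of myofibroblasts, had counts of 31 in SD, 35.1 in HFD, 14.1 with JT003 added, 165 in corn oil, 108 in CCl4 and 45.1 with JT003 added, with corn oil above CCl4. Of 7 portal fibroblast markers none was called with HFD, 1 was lower with JT003 in the diet model (Eln), 2 were higher with CCl4 (Eln and Entpd2) and 1 lower with JT003 after it (Eln). Their summed level in FPKM was 11.5 in SD, 11.1 in HFD, 8.49 with JT003 added, 16.7 in corn oil, 24.9 in CCl4 and 22.1 with JT003 added.

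Markers of other cell types changed in the CCl4 model. All 6 mitosis genes were called higher with CCl4 and lower with JT003 after it, with a summed level in FPKM of 1.58 in corn oil, 76 in CCl4 and 5.33 with JT003 added. With CCl4, 6 of 7 macrophage markers and 4 of 6 cholangiocyte markers were called higher and 2 of 7 endothelial markers lower (Kdr and Vwf). With JT003 after it, 2 of 6 mesothelial markers (Msln and Upk3b), 1 cholangiocyte marker (Sox9) and 1 macrophage marker (Gpnmb) were called lower, and the macrophage marker Marco was called higher. The macrophage list summed in FPKM to 95.2 in SD, 106 in HFD, 142 with JT003 added, 21.2 in corn oil, 75.9 in CCl4 and 122 with JT003 added. With JT003 after CCl4 its median log2 ratio was -0.35, with 3 of 7 genes above 0 and 4 below, and the higher sum came from Clec4f (10.6 and 18.2 FPKM), Cd5l (26.9 and 51.7 FPKM) and Marco (4.01 and 32.5 FPKM), beside Cd68 at 11.7 and 8.98 FPKM. The cholangiocyte list summed to 16.1 in SD, 26.1 in HFD, 16.7 with JT003 added, 26.7 in corn oil, 105 in CCl4 and 106 with JT003 added, most of it Spp1, which had 13.8 in SD, 23.8 in HFD, 13.1 with JT003 added, 21 in corn oil, 90.5 in CCl4 and 95.1 with JT003 added. With JT003 after CCl4, 2 of its 6 genes had a log2 ratio above 0 and 4 below. The endothelial list summed to 62.2 in SD, 67.2 in HFD, 80.6 with JT003 added, 38.8 in corn oil, 25.6 in CCl4 and 39.1 with JT003 added, and the mesothelial list to 0.85 in SD, 0.92 in HFD, 2.69 with JT003 added, 7.95 in corn oil, 7.9 in CCl4 and 4.28 with JT003 added. In the diet model, 1 macrophage marker was called higher with HFD (Gpnmb) and 2 lower with JT003 (Gpnmb and Trem2), 1 endothelial marker was called higher with HFD (Lyve1), and 1 mesothelial (Msln) and 1 cholangiocyte marker (Krt19) were called higher with JT003. As to the tissue itself, the 6 hepatocyte markers summed to 46085 to 57532 FPKM over the 6 libraries, most of it Alb, and 1 of them was called lower with CCl4 (Cyp2e1, at -2.24). Adipoq and Plin1, defining genes of fat cells, were at 0 to 0.62 FPKM in sum.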

How the data were processed

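Bulk liver RNA-seq of 6 mouse libraries was analysed, with 1 library per condition as the labels assign them. The authors deposited an expected count and an FPKM value for each gene and library. The submitters' processing notes name HISAT, Bowtie2, RSEM and the mm9 build, with neither versions nor settings. An expected count splits reads that fit several genes, so that 69.9% to 70.9% of values were whole numbers, and counts were rounded before testing. Depth was 19374236 to 20184557 reads per library, and 16083 to 16738 genes were listed in each.

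Library sizes were scaled by TMM (edgeR 4.0.16, R 4.3.3) within each model of 3 libraries, or over all 6 for corn oil against SD. Pairs of libraries were compared with scipy 1.17.1 (Python 3.11.15) by an exact binomial test, two-sided and conditional on the summed count of a gene, over genes with at least 1 read, with Benjamini-Hochberg adjustment over all of them. Genes were called at an adjusted p under 0.001 and an absolute log2 ratio of 1 with a prior count of 2, and intervals are 95% Clopper-Pearson. Intervals of a change in a ratio of chains are exact conditional ones, and those of a difference between models are normal ones, both from the counts. The test was also run on simulated counts that carry counting error only, the error it assumes. That run says nothing of differences between mice. Library sizes of total reads, DESeq2 1.42.0 size factors, other filters, prior counts and thresholds, an assumed coefficient of variation and FPKM were tried as alternatives.

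The collagen chains, the other gene lists and the markers were chosen with earlier results of these data known. Chains with at least 100 counts in a library are given in every library. From each pathway list, called genes with 100 counts in the higher library are named, at most 4 per comparison with the largest ratio. Called genes under 100 counts are named too, among them Lox, Fmod, Mrc2 with HFD, Mmp13 and Timp1. Those were chosen after their values were seen. Of 4 deposited comparison tables, 1 gave the pooled CCl4 counts, for which replacing the CCl4 library was planned, while subtracting that library was added after seeing the data. Their columns of fold changes, p-values and calls were not used, nor were 7 other columns of per-sample values. Protein sequences were not analysed here.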

Additional observations from a re-analysis of the deposited data

Results flagged for a closer look

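Col27a1 was the chain called in opposite directions in the 2 models. The log2 ratio was 1.90 for HFD over SD, with 154 and 617 counts, and -1.19 for CCl4 over corn oil, with 351 and 187 counts, each called. The CCl4 value less the diet value was -3.09 (95% interval -3.44 to -2.73, normal, from the counts). The interval covers counting error only, and with 1 library per condition a difference between mice cannot be told apart from one between the models.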

How the results depend on the processing

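The calls compare single libraries, and depth limits chains under 100 counts, whose intervals are wide. No paired analysis was possible because each condition has 1 library; for the same reason no replicate could be left out. Across the planned and added settings, 70 of 108 recomputed counts of calls and summed levels stayed within 1.5 times the reported count or within its interval. Of 900 recomputed log2 ratios of chains, 775 kept their direction and call, 61 gained and 40 lost a call, and 24 changed sign, all of them ratios not called. Of 280 recomputed counts of calls in the other gene lists, 224 stayed within 1.5 times the reported count and 56 did not. The cause of the changes was not tested, except that dropping a threshold adds calls by construction.

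Without the fold threshold, 11 chains were called higher and 2 lower with HFD, and 2 and 11 with JT003 in the diet model. With CCl4 these numbers were 12 and 2, and with JT003 after it 2 and 8. Between SD and HFD plus JT003 they were 5 and 5, and between corn oil and CCl4 plus JT003 11 and 2. Between SD and corn oil they were 4 and 6. In the same order, the shares of all genes called were 10.3% and 13.3%, 7.59% and 6.72%, 14.1% and 12.2%, and 9.81% and 14.3%. The remaining shares, in that order, were 11.8% and 15%, 9.2% and 11.4%, and 13.2% and 15.8%. With an assumed coefficient of variation of 0.4 in edgeR's exact test, 0 chains were called in either direction in all 4 main comparisons. With library sizes of total reads, 0 chains were called lower with HFD and 1 with CCl4. On the log2 scale of FPKM plus 0.1, with no test, 0 chains were lower with HFD, 1 lower with CCl4 and 1 higher with JT003 after CCl4. On that of FPKM plus 1, 0 were lower with HFD, 2 lower with JT003 in the diet model, and 4 higher and 0 lower with CCl4. For the coefficient of variation, total reads and both FPKM scales, the shares of all genes called are not given. These counts are therefore not read as particular to collagen chains. When the CCl4 library was replaced by the column pooled by the authors, 6 chains were called lower with JT003, where 2.91% of all genes were, and with that column less the CCl4 library 6 again, while 1 was then lower against corn oil.

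The ratio of summed collagen levels was 1.28 for HFD over SD, 0.898 for HFD plus JT003 over HFD, 1.64 for CCl4 over corn oil and 0.799 for CCl4 plus JT003 over CCl4. Without Col18a1, a setting added after seeing the data, these were 1.84, 0.707, 2.74 and 0.718. As sums of TMM-scaled counts, HFD over SD was 1.18, CCl4 over corn oil 1.42 and CCl4 plus JT003 over CCl4 0.742.

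The ratios that changed sign are these. With HFD, Col12a1 was at 0.046 with total reads and at 0.026 and 0.010 on the FPKM scales, and Col18a1 at 0.12, 0.13 and 0.13, and at 0.0020 with DESeq2 size factors. With JT003 in the diet model, Col18a1 was at 0.012 with total reads. With CCl4, Col5a3 was at 0.080 with total reads and at 0.083 and 0.076 on the FPKM scales. With JT003 after CCl4, Col12a1 was at 0.011 and Col14a1 at 0.044 with total reads, Col14a1 was at 0.039 and 0.033 on the FPKM scales, Col6a1 was at -0.56 with the pooled counts and -0.79 with those less the CCl4 library, and Col13a1 was at -0.031 with the latter. With total reads, HFD plus JT003 over SD gave 0.13 for Col13a1, 0.14 for Col18a1, 0.13 for Col5a1 and 0.10 for Col6a2, and CCl4 plus JT003 over corn oil gave 0.054 for Col15a1 and 0.17 for Col18a1.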
